A study of Mus musculus with 30 samples.

Results

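The mRNAs of respiratory chain complexes III, IV and V that are encoded in mitochondrial DNA, and the rRNAs encoded beside them, were measured in mouse sperm. They were chosen by name, before any filter on counts, and are 8 genes: mt-Cytb of complex III, mt-Co1, mt-Co2 and mt-Co3 of complex IV, mt-Atp6 and mt-Atp8 of complex V, and the rRNA genes mt-Rnr1 and mt-Rnr2. The sperm tables of the study name 16367 features in all. The table of sperm collected 24 h after the last injection has 16242 features and holds all 8 genes, and the table of sperm collected 46 days after it has 3082 features and holds 4 of the 8, mt-Cytb, mt-Co1, mt-Rnr1 and mt-Rnr2. The other 4, mt-Co2, mt-Co3, mt-Atp6 and mt-Atp8, were not analysed at 46 days.

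C57Bl/6J males were injected from 3 months of age, 2 times per week for 4 weeks, with tesaglitazar, an agonist of the nuclear receptors PPARα and PPARγ, or with vehicle. The tesaglitazar groups (TESA) received 10 μg per kg body weight intraperitoneally, and the vehicle groups (CTRL) DMSO in saline. At 46 days there were 7 TESA and 7 CTRL libraries, prepared from total RNA after removal of rRNA, and at 24 h there were 4 and 4, prepared from polyadenylated RNA. The study reports n as animals left after removal of outliers, gives fewer TESA animals for the later time than there are deposited libraries, and does not name the library left out. All 7 were used here. Sperm swam out of the cauda epididymis and somatic cells were lysed before RNA extraction. The question of the comparison is whether RNA of sperm differs after activation of these receptors. Time after injection and kind of library change together between the tables, so the effects of these cannot be told apart. Each table was tested by itself, and comparisons between the tables are given as such.

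Mitochondrial DNA is transcribed from both strands into long precursors, from which the rRNAs, mRNAs and tRNAs are cut. The rRNAs form the core of the mitochondrial ribosome, which translates the mRNAs into core subunits of the respiratory chain and of the ATP synthase. Mature sperm keep their mitochondria in the midpiece of the tail, around the base of the flagellum.

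Sperm markers were present in each table. At 46 days all 14 markers of sperm and late spermatids were in the table, with Prm2, a protamine that packs sperm DNA, the most abundant. Summed over the 14, they reached 469 to 970 CPM after TMM scaling in TESA libraries and 419 to 922 in CTRL libraries. None of the 12 leukocyte, 19 epididymis, 6 blood, 5 smooth muscle or 7 fibroblast and matrix markers, such as Ptprc, Crisp1, Hbb-bs, Acta2 and Col1a1, is in the table at 46 days. Which filter that table went through before deposit is not stated.

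At 24 h the 14 sperm markers summed to 10515, 5631, 11936 and 7349 CPM in TESA libraries 1, 3, 5 and 7 and to 9274, 3894, 9709 and 12639 CPM in CTRL libraries 2, 4, 6 and 8, with Odf1, an outer dense fibre protein, most abundant. All 12 leukocyte markers were in this table, led by Cd52, a surface glycoprotein that epididymal cells also make, and summed to 2084, 1255, 2202 and 2581 CPM in TESA and 1717, 1211, 2068 and 1538 CPM in CTRL. CTRL library 4 had the lowest sums of both lists. Of the epididymis markers 11 of 19 were present, led by Spink8, with sums of 1171 to 1805 CPM in TESA and 1078 to 2867 in CTRL, while Lcn5, Lcn8, Lcn9, Cst11, Cst12, Rnase10, Pate4 and Defb22 were not in the table. Blood markers summed to 64.7 to 147 CPM in TESA and 53.5 to 270 in CTRL with Hba-a2 first and Alas2 and Slc4a1 absent, smooth muscle markers to 26.8 to 77.3 and 11.9 to 35.6 with Tagln first, and fibroblast and matrix markers to 54.3 to 144 and 48.1 to 224 with Fn1 first and Lum absent. The part of other cells in the values below was not tested, and in bulk RNA fewer cells of a kind and less RNA per cell cannot be told apart.

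Libraries held 4538102 to 13513816 counts at 46 days and 15337589 to 27709990 at 24 h. At 46 days the 5 most abundant features, Rn18s-rs5, Yam1, B4A, L1Md_F2 and Rn7s1, left 158820 to 7119414 counts for all others, lowest in TESA library 02 and highest in CTRL library 14. At 24 h RP23-81C12.3, Lars2, L1Md_T, Mir6236 and mt-Rnr2 were the most abundant, and mt-Rnr2 alone took 2.83% of all counts. Each gene had more than 20 counts in every library that was analysed, except mt-Cytb at 46 days, which exceeded 20 in 10 of 14 libraries, so all 4 genes at 46 days and all 8 at 24 h were tested. The study counts n in animals, but the labels do not say that each library is a different animal, so p-values measure the spread between libraries.

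The mRNA of cytochrome b, mt-Cytb, codes for the catalytic core subunit of complex III and lies at bases 14145 to 15288 of the mitochondrial genome (GRCm38.p6). At 46 days it had 1.61, 2.21 and 2.64 CPM as the lowest, median and highest value of the CTRL libraries. In the TESA libraries these values were 1.57, 6.80 and 683 CPM. TESA library 12 was highest, library 02 followed with 41.9 CPM, libraries 01, 03, 04 and 05 had 3.93 to 7.42 and library 11 lay below every CTRL library. The groups thus overlapped through library 11 alone, with 6 of 7 TESA libraries above all CTRL libraries, a pattern that 0.209% of the 2866 tested features showed. The other 5 features with 6 or more such libraries, named after their values were seen, were Abca1, C4b, Gatc, mt-Nd4 and Pdxdc1. The 683 CPM of library 12 stand for 1727 counts and the 41.9 of library 02 for 36, while CTRL libraries held 11 to 173 counts. CTRL libraries 07 and 10 had 33 and 34 counts, which stand for 1.95 and 2.27 CPM. The TMM factors by which CPM are divided ran from 0.0981 in TESA library 02 to 8.15 in CTRL library 14. As a share of all counts, library 12 alone was above every CTRL library.

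The mean of mt-Cytb at 46 days was 107 CPM ± 254 (SD, n = 7) in TESA and 2.12 ± 0.369 (SD, n = 7) in CTRL. In edgeR's quasi-likelihood test the log2 fold change was 5.65 (standard error 1.32, unadjusted p = 0.000566), higher in 6 of 7 libraries, and did not pass after Benjamini-Hochberg adjustment over all features (edgeR, adjusted p = 0.604). The value rested on library 12: without it the log2 fold change was 2.01, and without libraries 02 and 12 it was 1.19. With all libraries it was 2.14 in DESeq2, 1.17 in limma voom, 2.69 with library totals and 3.69 with a term for the libraries numbered 11 to 14, which may have been processed apart although no label says so. With edgeR's exact test, the test that the study names for these libraries, the same gene passed (adjusted p = 0.00372 in edgeR). Over all alternatives with edgeR, DESeq2 and limma the adjusted p ran from 0.00372 to 0.999.

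mt-Co1, at bases 5328 to 6872, codes for the subunit of cytochrome c oxidase (complex IV) in which oxygen is reduced. Its lowest, median and highest values at 46 days were 15.1, 31.7 and 61.0 CPM in CTRL. In TESA they were 17.2, 38.0 and 3417 CPM. The 6 TESA libraries other than library 12 lay within the range of the CTRL libraries, and library 12 was far above it with 8646 counts. The edgeR log2 fold change was 3.87 (standard error 1.21, adjusted p = 0.754 from the quasi-likelihood test, above the CTRL range in 1 of 7 libraries), and without library 12 it was -0.12. It was also below 0 under DESeq2 (-0.0791) and in libraries numbered 1 to 10 alone (-0.23), and it was 0.12 in limma voom, 0.93 with library totals and 0.97 with a term for libraries 11 to 14.

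mt-Rnr1, the 12S rRNA of the small mitochondrial ribosomal subunit at bases 70 to 1024, had lowest, median and highest values of 211, 539 and 1103 CPM in CTRL at 46 days. In TESA these were 489, 690 and 3071 CPM. mt-Rnr2, the 16S rRNA of the large subunit at bases 1094 to 2675, had 605, 1766 and 3456 CPM in CTRL and 1502, 2333 and 9499 in TESA. Library 12 was again highest, the other 6 TESA libraries lay within the CTRL range, and the lowest value was that of CTRL library 13 for each rRNA. The edgeR log2 fold changes were 0.70 (standard error 0.45, unadjusted p = 0.138) for mt-Rnr1 and 0.67 (standard error 0.45, unadjusted p = 0.159) for mt-Rnr2, and without library 12 they were 0.10 and 0.08. In limma voom they were 0.20 and 0.23, and with a term for libraries 11 to 14 they were 0.46 and 0.42. Scaling by library totals alone, which moved the median of all tested features from -0.03 to -1.09, gave -1.05 and -1.03.

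**Figure D1:**
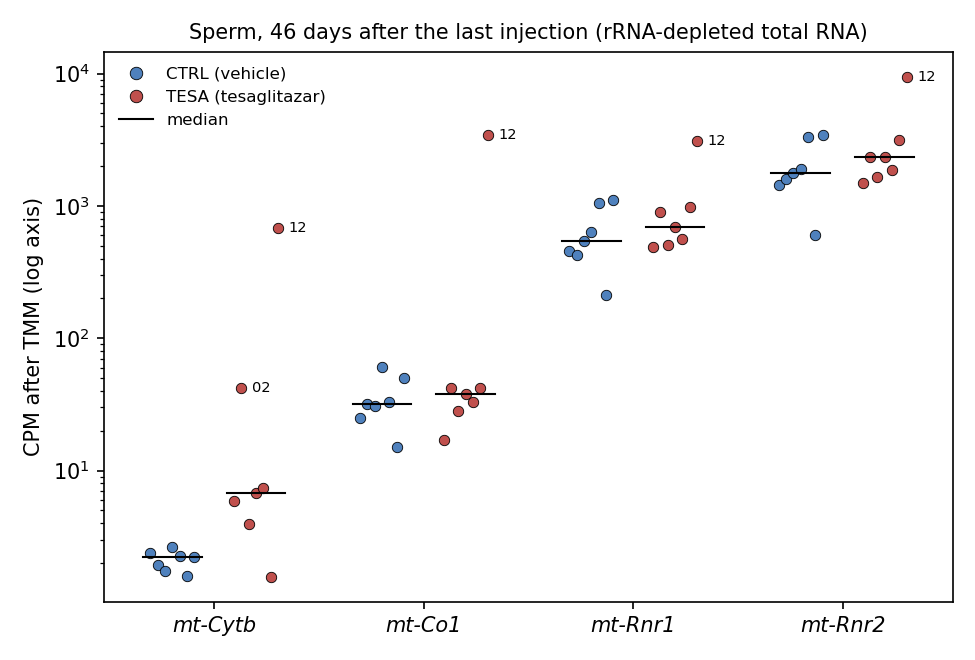
Level of each gene in single sperm libraries 46 days after the last injection, as CPM after TMM on a log axis, with 7 CTRL libraries in blue, 7 TESA libraries in red and black lines at the medians. TESA library 12 is highest for each gene, and for mt-Cytb the other TESA libraries except library 11 also lie above the CTRL range of 1.61 to 2.64 CPM.

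At 46 days the quasi-likelihood test of edgeR called 0 of 2866 features after adjustment, 0%. At an unadjusted p under 0.05 there were 152 features, 5.3% of those tested, and 122 of them, 4.26%, were higher in TESA. This balance turned with the processing: 25 were higher and 67 lower without library 12, 43 higher and 122 lower with limma voom, and 6 higher and 200 lower when library totals took the place of TMM. Of the 4 genes, mt-Cytb and mt-Co1 were among the 122 and neither rRNA was. Counts differed between tools: DESeq2 and limma voom also called 0 features, with 135 and 165 at an unadjusted p under 0.05, while edgeR's exact test called 14, among them mt-Cytb, the complex I mRNAs mt-Nd1, mt-Nd4 and mt-Nd5, and 10 features that are not named as mitochondrially encoded.

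The mRNAs were set against the rRNAs within each library, a ratio that no scaling between libraries changes. The kit that removed rRNA at 46 days, Ribo-Zero Gold, also targets mitochondrial rRNA, so rRNA levels and ratios there describe what depletion left. At 24 h rRNA levels and ratios describe what the selection of polyadenylated RNA kept. At 46 days the log2 ratio of mt-Cytb and mt-Co1 counts to rRNA counts was -6.94, -6.10 and -5.33 as lowest, median and highest in CTRL. In TESA it was -6.57, -6.06 and -1.62. Library 12 stood apart, with 3.07 rRNA counts per mRNA count against 38.5 to 94.7 in the other TESA libraries and 40.1 to 123 in CTRL. The mean log2 ratio was -5.42 ± 1.73 (SD, n = 7) in TESA and -6.07 ± 0.53 (SD, n = 7) in CTRL, a difference of 0.65 that did not pass (exact permutation, two-sided, p = 0.474, adjusted p = 0.829 over 8 such tests of ratios and shares, above the CTRL range in 2 of 7 libraries). Without library 12 the difference was 0.02. With mt-Cytb alone as the mRNA it was 2.03 (exact permutation, two-sided, p = 0.0321) and with mt-Co1 alone 0.40 (p = 0.846), both chosen after the data were seen, and as the mean over single genes it was 1.21 (p = 0.0915).

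The mRNAs were also set against each other. At 46 days mt-Cytb made up 6.33% ± 2.13 (SD, n = 7) of the mt-Cytb and mt-Co1 counts in CTRL and 20.2% ± 14.7 (SD, n = 7) in TESA. The log2 ratio of mt-Cytb to mt-Co1 was -4.50, -4.00 and -3.19 as lowest, median and highest in CTRL, and -4.73, -2.32 and 0 in TESA. Libraries 01, 02, 03, 04, 05 and 12 were above every CTRL library and library 11 was below every one. The difference of 1.63 was compared after its values had been seen (two-sided exact permutation test, p = 0.0128), and it was 1.64 without library 12, 2.16 in libraries numbered 1 to 10 alone and 1.18 without libraries 02 and 12. It rests on 11 to 56 counts of mt-Cytb in each library other than TESA library 12 and CTRL library 14. At 24 h the same log2 ratio was -1.34, -1.65, -1.92 and -1.11 in TESA and -1.82, -2.13, -1.71 and -0.98 in CTRL, and the groups overlapped (difference 0.15, two-sided exact permutation test, p = 0.629). Without CTRL library 4 that difference was -0.00391 and without CTRL library 8 it was 0.38.

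The ratio of the rRNAs to each other varied little. At 46 days there were 2.87 to 3.76 mt-Rnr2 counts per mt-Rnr1 count in CTRL and 2.61 to 3.39 in TESA, where library 02 was lowest. The log2 ratio was 1.65 ± 0.13 (SD, n = 7) in TESA and 1.67 ± 0.12 (SD, n = 7) in CTRL, with a difference of -0.02 (two-sided exact permutation test, p = 0.779) that was 0.0239 without TESA library 02 and 0.0201 without CTRL library 07. At 24 h there were 2.05, 2.11, 2.34 and 2.31 mt-Rnr2 counts per mt-Rnr1 count in TESA and 2.07, 2.68, 1.99 and 2.02 in CTRL, with CTRL library 4 highest. The log2 ratio there was 1.14 ± 0.09 (SD, n = 4) and 1.12 ± 0.20 (SD, n = 4), with overlapping groups (two-sided exact permutation test, p = 0.829). The difference of 0.02 was 0.12 without CTRL library 4 and between -0.0246 and -0.00455 without library 2, 5, 6, 7 or 8.

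At 24 h the genes of complex IV were the most abundant of the mRNAs per length by group means. In single libraries mt-Co1 exceeded mt-Atp6 in 7 of 8. mt-Co1 had 9625, 4651, 4304 and 3857 CPM in TESA libraries 1, 3, 5 and 7 and 7805, 2242, 12738 and 5322 CPM in CTRL libraries 2, 4, 6 and 8. mt-Co2, which codes for the subunit that takes up electrons from cytochrome c and lies at bases 7013 to 7696, had 15269.9, 6058, 7592 and 7234 CPM in TESA and 12550.1, 3365, 17276 and 8522 in CTRL. mt-Co3, a core subunit at bases 8607 to 9390, had 7597, 3193, 3266 and 3795 CPM in TESA and 5669.5, 1478, 10758 and 8419 in CTRL. For each of these 3 genes TESA library 1 was highest of its group, CTRL library 4 was lowest of all 8 libraries and CTRL library 6 highest, so the TESA values lay inside the CTRL range. The edgeR log2 fold changes were -0.33 for mt-Co1 (standard error 0.54), -0.21 for mt-Co2 (standard error 0.53) and -0.56 for mt-Co3 (standard error 0.57), and without CTRL library 6 those of mt-Co1, mt-Co2 and mt-Co3 were 0.13, 0.15 and -0.22. Without TESA library 1 the values for mt-Co1, mt-Co2 and mt-Co3 were -0.70, -0.57 and -0.92. Without CTRL library 4 they were -0.60, -0.48 and -0.87.

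mt-Cytb at 24 h had 3812, 1479, 1134 and 1784 CPM in TESA and 2217, 513, 3893 and 2694 in CTRL, again inside the CTRL range. Its edgeR log2 fold change of -0.18 (standard error 0.58) was 0.18 without CTRL library 6 and 0.04 without TESA library 5. It was -0.65 without TESA library 1 and -0.50 without CTRL library 4. The complex V genes code for subunits of the membrane part of the ATP synthase. mt-Atp6, at bases 7927 to 8607, had 2211, 922, 750.1 and 1174 CPM in TESA and 1422, 279, 3119 and 3066 in CTRL. mt-Atp8, at bases 7766 to 7969, had 50.4, 37.8, 25.9 and 34.7 CPM in TESA and 44.5, 10.8, 62.7 and 84.3 in CTRL. The log2 fold changes in edgeR were -0.64 (standard error 0.64) for mt-Atp6 and -0.45 (standard error 0.50) for mt-Atp8, with CTRL library 4 lowest for each. Without TESA library 1 they were -1.03 and -0.60, without CTRL library 4 -0.98 and -0.76, and without CTRL library 8 -0.35 and -0.0825. All 6 mRNAs had an unadjusted p of 0.343 or more in edgeR's quasi-likelihood test.

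The rRNAs at 24 h were lower in each TESA library than in any CTRL library. mt-Rnr1 had 12044.5, 10070.1, 6182 and 6878 CPM in TESA and 15629, 12661, 17671 and 21738 in CTRL. mt-Rnr2 had 24718, 21231, 14483 and 15889.6 CPM in TESA and 32360, 33901, 35093 and 43932.5 in CTRL. The groups did not overlap for either rRNA, which held, in this direction, for 268 of the 13752 tested features, 1.95%, and for 2 of the 8 genes. CTRL library 4, lowest in every mRNA, was lowest for mt-Rnr1 among the CTRL libraries but not for mt-Rnr2.

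mt-Rnr1 had a mean of 8794 CPM ± 2750.0 (SD, n = 4) in TESA and 16925 ± 3811 (SD, n = 4) in CTRL, and mt-Rnr2 had 19081 ± 4751 (SD, n = 4) and 36322 ± 5196 (SD, n = 4). The log2 fold changes were -0.94 (standard error 0.38, unadjusted p = 0.0329) and -0.93 (standard error 0.39, unadjusted p = 0.0391) in edgeR's quasi-likelihood test, lower in 4 of 4 libraries, and neither passed the adjustment over all features (edgeR, adjusted p = 1.00). No feature did, 0% of 13752, and 372 had an unadjusted p under 0.05, which is 2.71%, with 241 of them, 1.75%, lower in TESA. With library totals, which moved the median of all tested features from -0.02 to 0.19, the balance turned to 120 higher and 31 lower. edgeR's exact test, DESeq2 and limma voom also called 0, with 377, 492 and 1022 features at an unadjusted p under 0.05. With all libraries, over tools, scalings and filters, the log2 fold change ran from -1.02 to -0.84 for mt-Rnr1 and from -0.97 to -0.79 for mt-Rnr2, and without single libraries from -1.12 to -0.79 and from -1.06 to -0.80. The smallest adjusted p, for mt-Rnr2 in DESeq2, was 0.239.

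As a share of all counts, without scaling, the rRNAs together took 3.02%, 2.96%, 2.23% and 3.58% in TESA libraries 1, 3, 5 and 7 and 3.70%, 3.75%, 5.61% and 7.54% in CTRL libraries 2, 4, 6 and 8. These groups did not overlap either, although for each rRNA by itself 3 of 4 TESA libraries lay below all CTRL libraries. The mean share was 2.95% ± 0.554 (SD, n = 4) in TESA and 5.15% ± 1.82 (SD, n = 4) in CTRL (two-sided exact permutation test, p = 0.0286, the smallest that 4 against 4 libraries allow), lower in 4 of 4 libraries, with an adjusted p of 0.229 over the 8 tests. The difference of -2.21 percentage points was -1.41 without CTRL library 8 (two-sided exact permutation test, p = 0.0571). The 6 mRNAs took 3.16%, 1.54%, 1.84% and 2.81% in TESA and 2.29%, 0.636%, 5.09% and 3.23% in CTRL, with overlapping groups (two-sided exact permutation test, p = 0.686) and a difference of means of -0.471 percentage points that was 0.289 without CTRL library 6 and -1.20 without CTRL library 4. At 46 days the groups overlapped in their shares, 0.0316%, 0.211% and 2.01% for the rRNAs as lowest, median and highest in TESA and 0.0801%, 0.251% and 3.72% in CTRL (two-sided exact permutation test, p = 0.521), where the difference of means of -0.465 percentage points was 0.00308 without CTRL library 14. The share of mt-Cytb and mt-Co1 there was 0.000822%, 0.00245% and 0.130% in TESA and 0.00153%, 0.0059% and 0.0426% in CTRL (two-sided exact permutation test, p = 0.745), and the difference of 0.0122 percentage points was -0.00558 without TESA library 12.

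**Figure D2:**
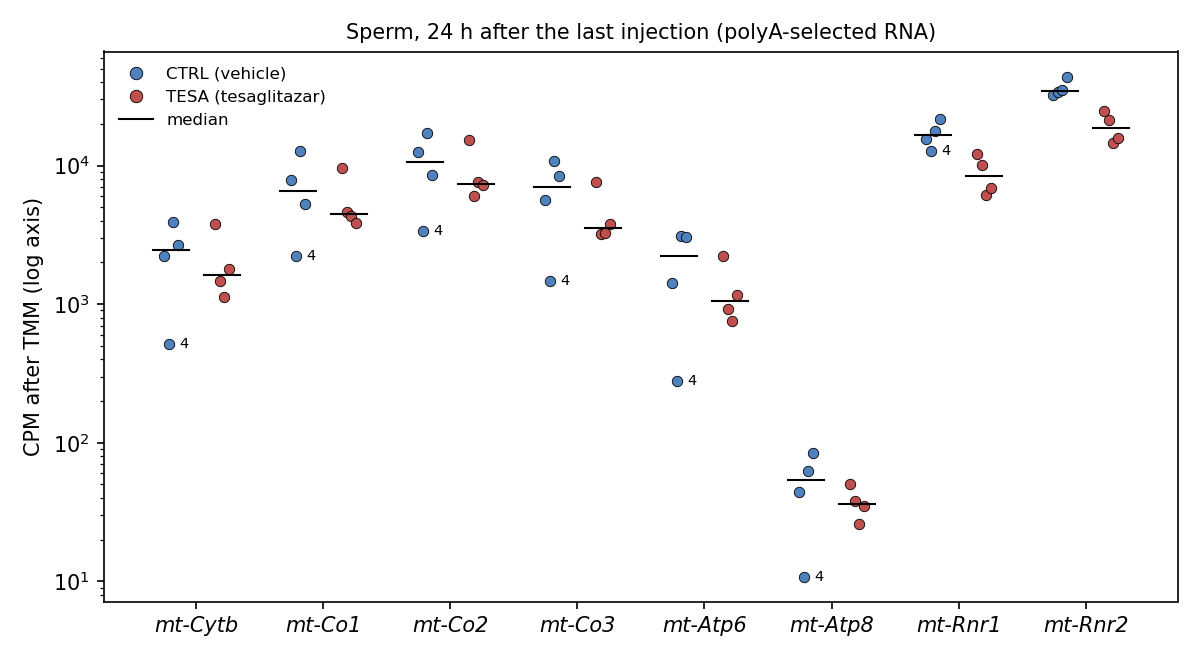
Level of each gene in single sperm libraries 24 h after the last injection, as CPM after TMM on a log axis, with 4 CTRL libraries in blue, 4 TESA libraries in red and black lines at the medians. For mt-Rnr1 and mt-Rnr2 the TESA libraries lie below all CTRL libraries, while for the 6 mRNAs the groups overlap and CTRL library 4 is lowest.

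Within the 24 h libraries the log2 ratio of the 6 mRNAs to the rRNAs was 0.07, -0.94, -0.28 and -0.35 in TESA and -0.69, -2.56, -0.14 and -1.22 in CTRL. TESA library 1 was the single library with more mRNA than rRNA counts, and CTRL library 4 had 5.90 rRNA counts per mRNA count against 0.953 to 2.34 elsewhere. The mean was -0.37 ± 0.42 (SD, n = 4) in TESA and -1.15 ± 1.04 (SD, n = 4) in CTRL, a difference of 0.78 that did not pass (exact permutation, two-sided, p = 0.229, adjusted p = 0.829 over the 8 tests, above the CTRL range in 1 of 4 libraries). Without CTRL library 4 it was 0.31. Taken gene by gene against the rRNAs with all libraries, the difference was positive for each mRNA, from 0.63 for mt-Co3 to 0.94 for mt-Cytb, with exact permutation p-values from 0.114 to 0.486. Single mRNAs were not compared without CTRL library 4, which was lowest in every mRNA. Their differences need not stay positive without it.

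**Figure D3:**
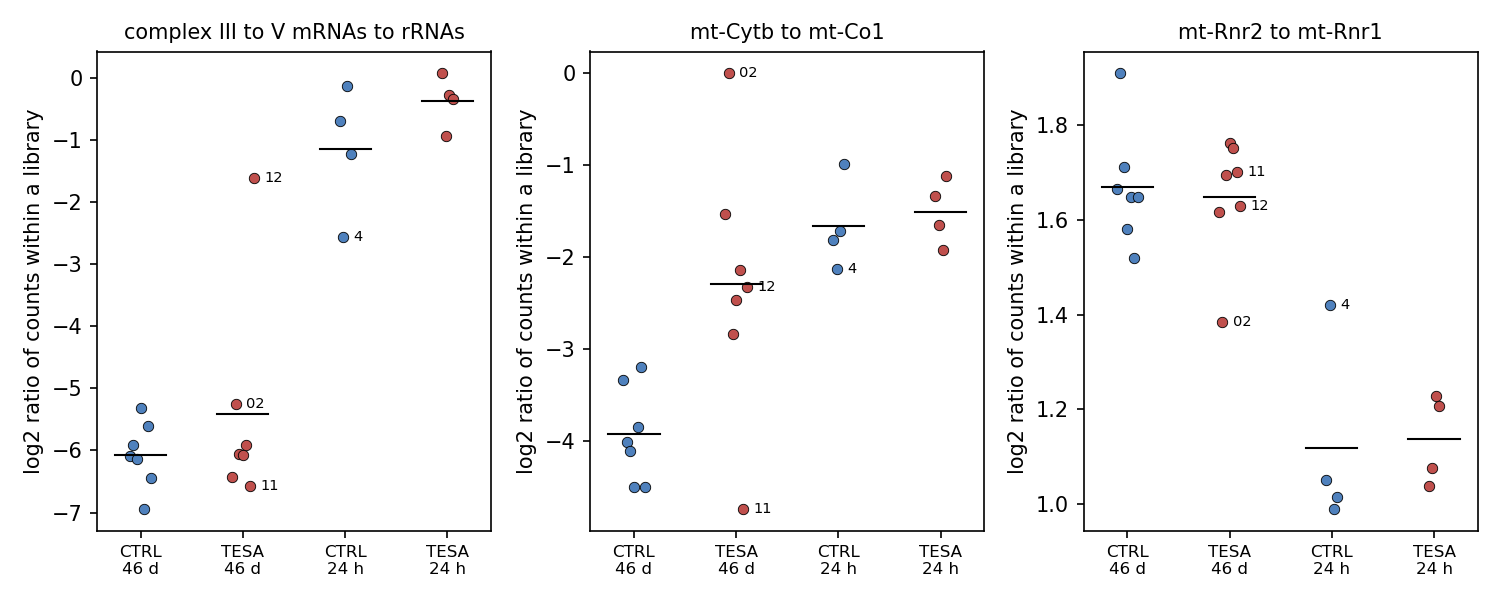
Log2 ratios of counts within single libraries, with CTRL in blue, TESA in red and black lines at the group means, for the complex III to V mRNAs against the rRNAs, mt-Cytb against mt-Co1 and mt-Rnr2 against mt-Rnr1. TESA library 12 stands apart in the ratio of mRNAs to rRNAs at -1.62, and in the ratio of mt-Cytb to mt-Co1 at 46 days 6 of 7 TESA libraries lie above the CTRL range.

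Levels were compared between genes per length, as CPM per kb of the annotated gene. mt-Atp8, with 204 bases, is the shortest of the 8 genes. Whether its low value per length is a lower level of RNA was not tested. The place of the rRNAs among the mRNAs depends on the selection of polyadenylated RNA at 24 h. In CTRL libraries at 24 h the order was mt-Rnr2 with 22959 ± 3284 (SD, n = 4), mt-Rnr1 with 17722 ± 3991, mt-Co2 with 15246 ± 8646, mt-Co3 with 8394 ± 5086, mt-Co1 with 4548 ± 2871, mt-Atp6 with 2895 ± 2021, mt-Cytb with 2036 ± 1225 and mt-Atp8 with 248 ± 153. In TESA libraries mt-Co2 came first with 13214 ± 6149 (SD, n = 4), followed by mt-Rnr2 with 12061 ± 3003 and mt-Rnr1 with 9208 ± 2880, and the order below them was the same. TESA library 1 raised that mean of mt-Co2, with 22324 CPM per kb against 8857 to 11099.5 in the other TESA libraries. mt-Rnr2, mt-Co2 and mt-Rnr1 did not keep an order across libraries: mt-Rnr2 exceeded mt-Co2 in 4 of 8 and mt-Co2 exceeded mt-Rnr1 in 5 of 8. mt-Rnr1 was above mt-Co3, mt-Co3 above mt-Co1 and mt-Cytb above mt-Atp8 in 8 of 8 libraries, while mt-Co1 was above mt-Atp6 in 7 and mt-Atp6 above mt-Cytb in 6. Of the 6 mRNAs' counts mt-Co2 took 40.4% ± 3.07 (SD, n = 4) in TESA and 37.8% ± 5.84 (SD, n = 4) in CTRL, and mt-Atp8 0.177% and 0.179%.

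At 46 days the order per length in CTRL was mt-Rnr2 with 1271 CPM per kb ± 648 (SD, n = 7), mt-Rnr1 with 662 ± 347, mt-Co1 with 22.8 ± 9.98 and mt-Cytb with 1.85 ± 0.323. In TESA it was the same, with 2021 ± 1791, 1075 ± 964, 335 ± 828 and 93.7 ± 222 (SD, n = 7). The TESA means of mt-Co1 and mt-Cytb rested on library 12, with 2212 and 597 CPM per kb. The other TESA libraries had at most 27.3 and 36.6. mt-Rnr2 exceeded mt-Rnr1 and mt-Rnr1 exceeded mt-Co1 in 14 of 14 libraries, and mt-Co1 exceeded mt-Cytb in 13, with TESA library 02 the exception. Per length mt-Rnr2 was 1.58 to 2.27 times as abundant as mt-Rnr1 at 46 days and 1.20 to 1.62 times at 24 h.

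mt-Atp8 and mt-Atp6 share 43 bases and mt-Atp6 and mt-Co3 share 1, so their values are uncertain where reads fall in shared sequence. Nuclear copies of mitochondrial DNA can also take reads, and none of 8 listed by name is in either table. Estimated counts of mt-Cytb and mt-Rnr1 were whole numbers, to 6 decimals, in every library, whereas mt-Co1 was not whole in 14 of 14 libraries at 46 days and 8 of 8 at 24 h, mt-Co2 in 8 of 8 and mt-Rnr2 in 7 of 14 and 8 of 8, and at 24 h mt-Atp6 was not whole in 4, mt-Atp8 in 3 and mt-Co3 in 2 of 8, as happens when reads are divided between features.

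**Figure D4:**
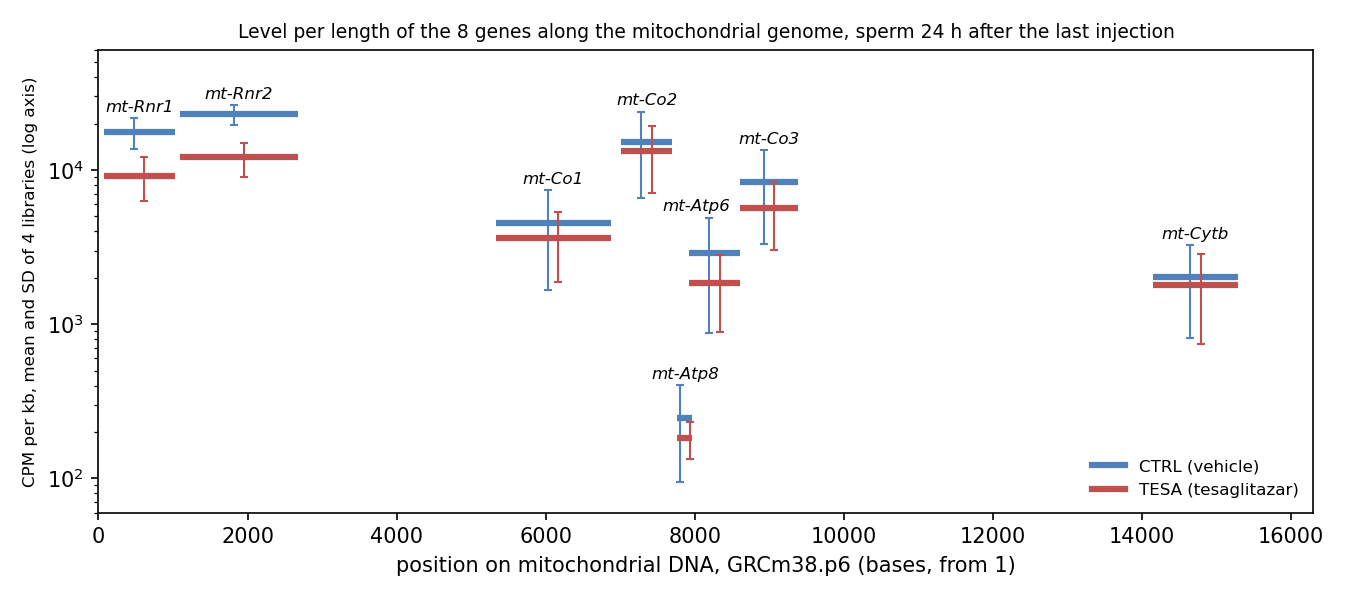
Position of the 8 genes on the mitochondrial genome (GRCm38.p6) and their level per length at 24 h as CPM per kb on a log axis, with bars at the mean over 4 libraries for CTRL in blue and TESA in red and thin lines for the SD. The rRNA genes lie from base 70 to base 2675 and have CTRL means of 17722 and 22959 CPM per kb against 9208 and 12061 in TESA. mt-Atp8, the shortest gene, is lowest per annotated length, and whether this is a lower level of RNA was not tested.

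Whether the effect of tesaglitazar differed between the tables was tested on the 2680 features that passed the filter in each, with edgeR's quasi-likelihood test of the interaction, and 0% passed while 127 had an unadjusted p under 0.05. The difference of the log2 fold changes, 46 days minus 24 h, was 5.57 (standard error 1.65) for mt-Cytb, 3.93 (standard error 1.60) for mt-Co1, 1.41 (standard error 0.70) for mt-Rnr1 and 1.36 (standard error 0.71) for mt-Rnr2, with adjusted p of 0.772, 0.923, 0.994 and 0.994 in edgeR. Without TESA library 12 these differences were 1.93, 0.0438, 0.86 and 0.83. For the ratio of mt-Cytb and mt-Co1 to the rRNAs, the effect was 0.65 at 46 days and 0.82 at 24 h, and their difference of -0.17 did not pass (exact permutation within each table, two-sided, p = 0.855). It was -0.81 without TESA library 12, 0.0187 without TESA library 11 and 0.27 without CTRL library 4.

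Complex I mRNAs are encoded in mitochondrial DNA too. At 46 days mt-Nd1, mt-Nd4 and mt-Nd5 summed to 1518 CPM in TESA library 12 and 130.4 in library 02. The further TESA libraries had 4.72 to 25.2 CPM and the CTRL libraries 4.52 to 12.4, with TESA libraries 03 and 11 inside the CTRL range. The log2 fold changes of mt-Nd1, mt-Nd4 and mt-Nd5 were 5.37, 5.79 and 4.08 (edgeR's quasi-likelihood test, adjusted p = 0.604 for each). Without library 12 they were 1.93, 2.38 and 1.26. At 24 h the 7 complex I mRNAs had a median log2 fold change of -0.34 and a lowest sum, 1521 CPM, in CTRL library 4. This median was -0.75 without TESA library 1, -0.62 without CTRL library 4 and -0.0687 without CTRL library 6.

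Nuclear genes that work with these RNAs were examined as lists, with medians set beside -0.02 over all tested features at 24 h. The 6 mRNAs had a median log2 fold change of -0.39 and the rRNAs one of -0.94, and without CTRL library 6 these were -0.0434 and -0.93, while without CTRL library 4 that of the mRNAs was -0.68. Of nuclear complex III 11 of 11 genes were tested with a median of 0.18, of complex IV 14 of 19 with 0.32, and of complex V 17 of 36 names, many of them newer symbols of the same genes, with 0.13. The most abundant were Uqcrh and Uqcr10 of complex III, Cox4i1 and Cox7a2l of complex IV and Atp5e and Atp5d of complex V. After adjustment edgeR called 0 of them, and 1 complex V gene was higher at an unadjusted p under 0.05. Mitochondrial ribosomal proteins, the partners of the rRNAs, were tested for 78 of 80 genes, with Mrpl30 and Mrps6 most abundant, a median of 0.33, 21 genes below 0, 4 higher at an unadjusted p under 0.05 and 0 passing the adjustment. Over all features 131 of 13752 were higher at an unadjusted p under 0.05. Genes of mitochondrial transcription and RNA processing, led by Nsun4 and Slirp, had a median of 0.02 over 26 of 37, with 1 higher at an unadjusted p under 0.05. Marker lists had medians of -0.08 for sperm, -0.25 for leukocytes, 0.25 for epididymis, -0.35 for blood, 0.77 for smooth muscle and -0.31 for fibroblasts and matrix, and 0 of their genes had an unadjusted p under 0.05. Leaving out 1 library turned some of these medians: that of sperm markers was 0.14 without CTRL library 8, of leukocyte markers 0.0822 without CTRL library 2, of blood markers 0.15 without CTRL library 8, of fibroblast and matrix markers 0.23 without CTRL library 4, and that of smooth muscle markers was 0.0766 without TESA library 5. For the genes of mitochondrial transcription and RNA processing it was 0.25 without TESA library 5 and -0.046 without TESA library 1. Without CTRL library 4 the medians of nuclear complex III, complex IV and the mitochondrial ribosome were 0.0929, 0.15 and 0.18, and without CTRL library 6 they were 0.33, 0.56 and 0.49, while that of complex V was 0.30 without TESA library 3. The tool and the scaling turned medians as well: limma voom gave -0.23 for epididymis, 0.11 for leukocytes, 0.34 for fibroblasts and matrix and -0.0869 for mitochondrial transcription and RNA processing, and library totals gave 0.0952 for sperm, 0.0342 for leukocytes and 0.0466 for fibroblasts and matrix. Other medians moved without turning. Limma voom gave 0.17 for smooth muscle, 0.14 for nuclear complex IV and 0.067 for nuclear complex V. Library totals, which moved the median of all tested features to 0.19, gave 0.39 for nuclear complex III, 0.36 for complex V and 0.56 for the mitochondrial ribosome. At 46 days no nuclear complex III, IV or V gene was in the table, 2 mitochondrial ribosomal proteins were (Mrps18b and Mrpl47, median log2 fold change 0.06), of the genes of mitochondrial transcription and RNA processing Nsun4 was tested (-0.11) and Mterf3 was not, and the 14 sperm markers, led by Prm2 and Oaz3, had a median of 0.04 against -0.03 over all features.

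The features outside the mitochondrial genome whose pattern was most like that of the mRNAs were found by Pearson's r of log2 CPM over the libraries of a table, given here as a likeness only. Over the 14 libraries at 46 days these were RP23-8J15.2 (r = 0.987), RP23-8J15.1 (0.980), RP23-8J15.4 (0.978), Abhd2 (0.974) and Rmrp (0.963), the RNA of an endonuclease that processes rRNA precursors. For the mean of the rRNAs they were Dennd1b (0.894), Rpl28 (0.889), Vps13b (0.872), H13 (0.860) and Rpl41 (0.854), of which Rpl28 and Rpl41 code for proteins of the cytosolic ribosome. The likeness to the mRNAs at 46 days includes library 12, which is highest in each mRNA.

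Over the 8 libraries at 24 h, Cript (r = 0.971), RP24-262G23.6 (0.970), RP24-255H18.1 (0.966), Cox5a (0.965) and Dancr (0.960) were most like the mRNAs, and Cox5a is a nuclear subunit of complex IV, the complex of mt-Co1, mt-Co2 and mt-Co3. Zcchc11 (r = 0.993), Ifnar2 (0.960), Nup153 (0.956), Ppp4r1l-ps (0.954) and RP23-464F22.3 (0.954) were most like the rRNAs. No feature named for the mRNAs was also named for the rRNAs in either table.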

How the data were processed

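Sperm libraries were grouped by their labels. Per the submitters' processing notes and the methods of the study, the authors trimmed reads with Trim Galore 1.16, quantified them with Salmon 0.11.2 (build GRCm38) and deposited estimated counts per gene or repeat family, not normalized. The notes also list cutadapt 1.14, which the methods name for small RNA. The serum table was not used here. Estimated counts were rounded to whole numbers and scaled by TMM over all features of a table. Tested features had over 20 counts in 6 or more libraries (46 days) or in 4 or more (24 h), and were tested with the quasi-likelihood test of edgeR 4.0.16 (limma 3.58.1, R 4.3.3) and Benjamini-Hochberg adjustment over all tested features at a threshold of 0.05. Log2 CPM used a prior count of 2. Ratios used a pseudocount of 0.5 and, with shares, two-sided exact permutation tests over libraries. Positions and lengths are from the RefSeq annotation of GRCm38.p6. Files were read with the R package data.table (version 1.17.8), DESeq2 1.42.0 gave alternatives, and plots were drawn with matplotlib 3.10.9 in Python 3.11.15. The scripts were tested on simulated data. Total counts per library were 4538102 to 13513816 at 46 days and 15337589 to 27709990 at 24 h, and outside the 5 most abundant features TESA library 02 had the fewest at 46 days, 158820. Features named were the 8 genes, complex I mRNAs, the 2 most abundant genes of each list, the 5 features most alike in pattern and the 5 most abundant features. The genes and lists were chosen with earlier results of these data known. Alternatives were other tests, scalings, filters, feature classes, pseudocounts and denominators, a term for libraries 11 to 14, libraries 1 to 10 alone and each library left out. The ratio of mt-Cytb to mt-Co1, the mean rRNA level after TMM, single mRNAs against the rRNAs, libraries 02 and 12 left out together, alternatives of both comparisons between tables, and those of the list medians were added after the data were seen.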

Additional observations from a re-analysis of the deposited data

Results flagged for a closer look

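In 14 of 44 groups of values, each a level, share or ratio in 1 treatment group, the highest or lowest library lay far from its neighbour relative to the whole range of the group. Chance alone sets a library apart in about 1 of 20 groups when values are normally distributed, levels and shares are skewed, and the rate for such values was not measured. Values of different genes in a library are not independent, so several of the 14 count the same library.

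TESA library 12 was set apart 6 times at 46 days. It had 683 CPM of mt-Cytb against 41.9 in the next library, 3417 CPM of mt-Co1 against 42.2, 3071 CPM of mt-Rnr1 against 974 and 9499 CPM of mt-Rnr2 against 3170. Its share of mt-Cytb and mt-Co1 in all counts was 0.130% against 0.0212%, and its log2 ratio of mRNAs to rRNAs was -1.62 against -5.26. The summed sperm markers of this library, 469 CPM, were the lowest of the TESA libraries, but CTRL library 13 had less, 419 CPM. That CTRL library had 16.7 CPM of mt-Cytb and mt-Co1 and 816 CPM of the rRNAs, the lowest sums at 46 days. The part of sperm markers in these values was not tested.

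At 46 days TESA library 11 also stood apart in its rRNA share, 2.01% against 0.398%, and TESA library 02 in its log2 ratio of mt-Rnr2 to mt-Rnr1, 1.39 (1.385) against 1.62. CTRL library 14 was apart in its mRNA share, 0.0426% against 0.0117%, and in its rRNA share, 3.72% against 1.43%. At 24 h TESA library 1 was apart for mt-Co1 with 9625 CPM against 4651, for mt-Co2 with 15269.9 against 7592 and for mt-Co3 with 7597 against 3795. CTRL library 4 was apart in its log2 ratio of mt-Rnr2 to mt-Rnr1, 1.42 against 1.05. These values were not tested further.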

How the results depend on the processing

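No paired analysis was possible because the groups compared share no library number. At 46 days 0 features were called in 11 of 12 alternatives and without each library, and edgeR's exact test called 14. At 24 h 0 were called in all 9 and without each library. mt-Cytb at 46 days was above 0 throughout, from 1.17 to 5.93. mt-Co1 fell below 0 under DESeq2 (-0.0791), in libraries 1 to 10 (-0.23) and without libraries 02 and 12 (-0.18), and ran from -0.12 to 4.14 without single libraries. mt-Rnr1 (-1.05) and mt-Rnr2 (-1.03) turned with library totals, which shift all features, and mt-Rnr2 (-0.0454) also in libraries 1 to 10. At 24 h no alternative with all libraries turned a gene. Without single libraries the range was -0.65 to 0.18 for mt-Cytb, -0.70 to 0.13 for mt-Co1, -0.57 to 0.15 for mt-Co2, -0.72 to 0.0443 for mt-Nd1 and -0.70 to 0.0836 for mt-Nd4.

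The mRNA to rRNA ratio at 46 days was 2.03 with mt-Cytb as the mRNA (two-sided exact permutation test, p = 0.0321), 0.40 with mt-Co1 (p = 0.846), 1.21 as the mean of single genes (p = 0.0915), -0.14 without libraries 02 and 12, and 0.02 to 0.84 without single libraries. At 24 h it was 0.63 to 0.94 over alternatives and 0.31 to 1.12 without single libraries. The mRNA share at 46 days turned on the log2 scale (-0.30) and in libraries 1 to 10 (-0.00425), with -0.00558 to 0.0175 without single libraries, and at 24 h it turned on the log2 scale (0.0198), with -1.20 to 0.289. The rRNA share at 46 days turned outside the 5 most abundant features (0.395), with -0.726 to 0.00308 without single libraries. The cause was not tested. At 24 h it was -2.69 to -1.41 without single libraries, without a change of direction. The mean rRNA level at 24 h was compared after the data were seen. Each TESA library lay below every CTRL library, which by itself fixes the exact permutation p at 0.0286. The level differed by -0.96, by -0.76 with library totals and by -1.10 to -0.81 without single libraries. The two-sided exact permutation p was then 0.05 or more in 5 of 8 omissions for the share and in 4 of 8 for the level, each time because splits in the other direction differed as much. Groups that lie apart with all libraries cannot overlap in their shares when 1 is left out, so these omissions do not test whether the groups lie apart. Without single libraries the mt-Rnr2 to mt-Rnr1 ratio ran from -0.0451 to 0.0239 at 46 days and from -0.0246 to 0.12 at 24 h, the mt-Cytb to mt-Co1 ratio from 1.25 to 2.04 and from -0.00391 to 0.38, and the difference between tables in the mRNA to rRNA ratio from -0.81 to 0.27. Features that differed between tables numbered 0 to 3. At 46 days mt-Cytb had 11 counts in the lowest library, and counts this low limit how precisely its level is known.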
